A study of Canis lupus familiaris with 8 samples.

Results

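Antioxidant and iron storage genes were followed across a doxorubicin-sensitive canine mammary carcinoma line, its resistant subline and the stem-like cells sorted from each: HMOX1, TXNRD1, PRDX1, FTL and SOD1. Every non-control probe whose accession maps to these genes was taken, which gave 11 of 43603 probes, and the 5 genes were among 978 named genes that could be tested. HMOX1, PRDX1 and SOD1 each had 1 probe, and TXNRD1 and FTL each had 4 probes that name the same transcript. All 11 probes passed the filter on dim signals, which kept a probe if both arrays of any group read it well above background. RNA was hybridised to 8 one-colour Agilent canine expression arrays, 2 for each of 4 groups. The Stylo parent group is the unsorted CMT-Stylo line, which was not treated with drug. The Star parent group is the unsorted CMT-Star subline, selected from CMT-Stylo over several months with rising doxorubicin until it resisted 100 nM. The Stylo CSC and Star CSC groups (CSC for cancer stem cell) are the CD44+, CD24-/low and ALDH+ cells of each line, collected by fluorescence-activated sorting. All cells grew in the same serum-containing medium, and each line is a single line, so the comparison of lines describes that pair. The labels do not say whether the replicates were separate cultures, and p-values then reflect only the spread of these arrays, possibly a technical one.

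Doxorubicin is an anthracycline whose quinone ring can pass electrons to oxygen, and free iron turns the resulting peroxide into hydroxyl radicals. Cells meet superoxide with superoxide dismutases, which make hydrogen peroxide, and remove the peroxide with catalase, glutathione peroxidases and peroxiredoxins. Peroxiredoxins are kept reduced by thioredoxin, which thioredoxin reductase reduces with NADPH. Haem oxygenase degrades haem and releases iron, and ferritin, a shell of heavy and light chains, stores it. HMOX1, TXNRD1, PRDX1 and the ferritin genes are known targets of the transcription factor NRF2.

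The arrays differed in overall brightness, and this bears on every comparison with the Stylo parent group. The 75th percentile of the processed signal was 69.2 to 88.3 on the Stylo parent arrays, 296 to 310 on the Stylo CSC arrays, 331 to 371 on the Star parent arrays and 464 to 536 on the Star CSC arrays. The 100 brightest spots held 32.4% to 33.7% of the signal in Stylo parent and 12.7% to 22.7% on the other arrays. Slide 1 held the 4 Stylo arrays and slide 2 the 4 Star arrays, so line and slide cannot be told apart. Levels are therefore given first as processed signals and then as log2 levels less each array's 75th percentile, called scaled levels here, and each difference is also given over 7 scalings (the main one, the median, the same percentile taken over probes above background everywhere, quantile, cyclic loess, spike-in probes, and normexp background correction before the percentile). A call required a Benjamini-Hochberg adjusted p under 0.05 in limma over all tested probes and a difference of at least 2-fold. Of the markers listed for mammary epithelium, KRT14 cleared the background in every group, and CDH1, the epithelial cadherin, did not in Stylo parent. Of 5 named, 2 were well above background in Stylo parent, 3 in Stylo CSC, 3 in Star parent and 4 in Star CSC. Their summed scaled linear level was highest in Stylo parent, at 3.45 to 4.23. It was 2.28 to 2.45 in Stylo CSC, 0.939 to 1.09 in Star parent and 1.2 to 1.35 in Star CSC. CLDN3 was above background on both arrays only in the Stylo groups. All 5 named fibroblast markers were above background in every group, with a summed scaled linear level of 608 to 649 in Stylo CSC and 77.5 to 198 elsewhere. Of 4 named leukocyte markers, 0 were above background in either Stylo group, 2 in Star parent and 3 in Star CSC, at a summed level of 1.05 to 1.09 in Star CSC and at most 0.186 elsewhere. The 3 named erythroid markers were above background nowhere. The part of these markers in the results was not tested. A lower level of a transcript in bulk RNA cannot be told apart from fewer cells that hold it.

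**Figure D1:**
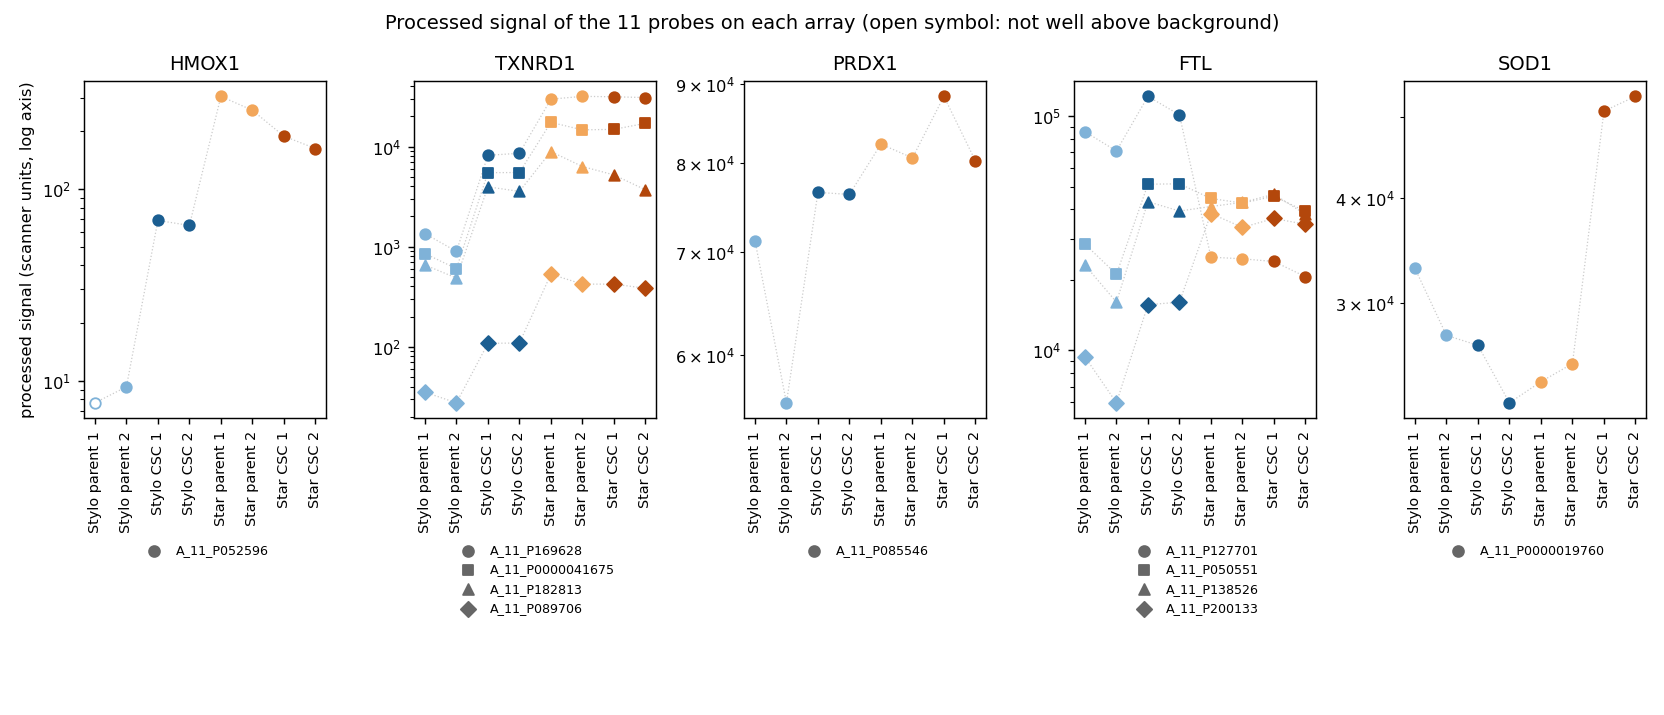
Processed signal (vertical log axis, scanner units, a separate range in each panel) of the 11 probes on each of the 8 arrays, coloured by group, with a symbol for each probe; the dotted lines only join the points of a probe. HMOX1 and TXNRD1 are lowest on the Stylo parent arrays, FTL probe A_11_P127701 is lowest on the 4 Star arrays while FTL probe A_11_P200133 is highest there, and SOD1 is highest on the Star CSC arrays.

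In the unsorted lines the 5 genes were divided. HMOX1 and TXNRD1 were called higher in Star parent than in Stylo parent, and PRDX1, SOD1 and the brightest FTL probe were called lower. With each gene represented by its brightest probe, 2 of 5 rose and 3 of 5 fell, against 24.6% of all tested probes called higher and 31.9% called lower. Among all tested named genes 20.6% were called higher and 39.2% lower. All 5 genes were called, where 56.5% of probes were called one way or the other. With so few genes and so many calls the count is not read as a result. Only the direction and size of each gene are described. The split of higher and lower calls moved with the scaling, to 32.2% and 24.4% with the median, 30.8% and 25.6% with the percentile of detected probes, 31.3% and 25.3% with quantile normalization, 49% and 13.5% with the spike-ins, and 15% and 44.7% with normexp. The median difference of the 5 genes was -1.80 on the log2 scale, beside -0.20 over all tested probes.

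HMOX1, which encodes the inducible haem oxygenase, had the weakest signals of the set. Its processed signal was 7.68 and 9.31 on the Stylo parent arrays, 68.7 and 64.7 on the Stylo CSC arrays, 305 and 258 on the Star parent arrays, and 189 and 163 on the Star CSC arrays. The groups did not overlap, and on the first Stylo parent array the spot was not well above background. The scaled level was -3.21 ± 0.44 (SD, n = 2) in Stylo parent and -0.32 ± 0.05 (SD, n = 2) in Star parent. HMOX1 was called higher in Star parent, at a log2 difference of 2.89 ± 0.20 (SE, adjusted p = 4.22e-05). With the dim spot raised to the lowest signal called well above background on its array (8.96), an alternative chosen after seeing the data, the difference was 2.78 ± 0.14 (adjusted p = 6.03e-06). The difference ran from 2.84 to 4.05 over 6 of the scalings and was 0.36, and not called, with normexp background correction. That correction adds an offset of 50 to every background-corrected signal, and the processed Stylo parent signals of this probe were 7.68 and 9.31. The part of the offset in the smaller difference was not tested.

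TXNRD1 encodes the cytosolic thioredoxin reductase, a selenoprotein. Its brightest probe, A_11_P169628, read 1350 and 895 in Stylo parent, 8167 and 8566 in Stylo CSC, 29730 and 31714 in Star parent, and 31415 and 30852 in Star CSC. Every Star array lay above every Stylo array, and every Stylo CSC array lay above both Stylo parent arrays. The scaled level rose by 2.64 ± 0.15 on the log2 scale from Stylo parent to Star parent, or 6.23-fold (adjusted p = 1.83e-05). The difference was called under all 7 scalings and ran from 2.64 to 3.83. All 4 probes were called higher. Probe A_11_P0000041675 differed by 2.32 ± 0.16, probe A_11_P182813 by 1.57 ± 0.16 and probe A_11_P089706 by 1.76 ± 0.10. The first of these kept its call under all 7 scalings, as did A_11_P182813, and A_11_P089706 kept it under 6 and was at 0.52 with normexp.

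PRDX1 encodes a thioredoxin-dependent peroxidase of the cytosol. Its processed signal moved little, from 71198 and 55861 in Stylo parent to 76507 and 76271 in Stylo CSC, 82232 and 80553 in Star parent and 88313 and 80198 in Star CSC. The Stylo parent arrays were the lowest by signal and the highest after scaling. Scaled to the 75th percentile, PRDX1 was 3.47-fold lower in Star parent, a log2 difference of -1.80 ± 0.10 (adjusted p = 1.58e-05). The call held under 3 of the 7 scalings, all set by a percentile or median of the array, and the difference was -0.64 with the spike-ins, -0.11 with normexp, 0.04 with cyclic loess and 0.67 with quantile normalization. The direction of PRDX1 between the lines is not settled by these arrays.

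SOD1, the cytosolic copper and zinc superoxide dismutase, read 32986 and 27433 in Stylo parent, 26692 and 22784 in Stylo CSC, 24150 and 25380 in Star parent, and 50862 and 52971 in Star CSC. Both Star CSC arrays lay above all the others, and the other 3 groups lay between 22784 and 32986. After scaling, SOD1 was 5.44-fold lower in Star parent than in Stylo parent, at -2.44 ± 0.14 (adjusted p = 2.16e-05). It was lower under every one of the 7 scalings, but the call was lost with quantile normalization (-0.59) and cyclic loess (-0.99).

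**Figure D2:**
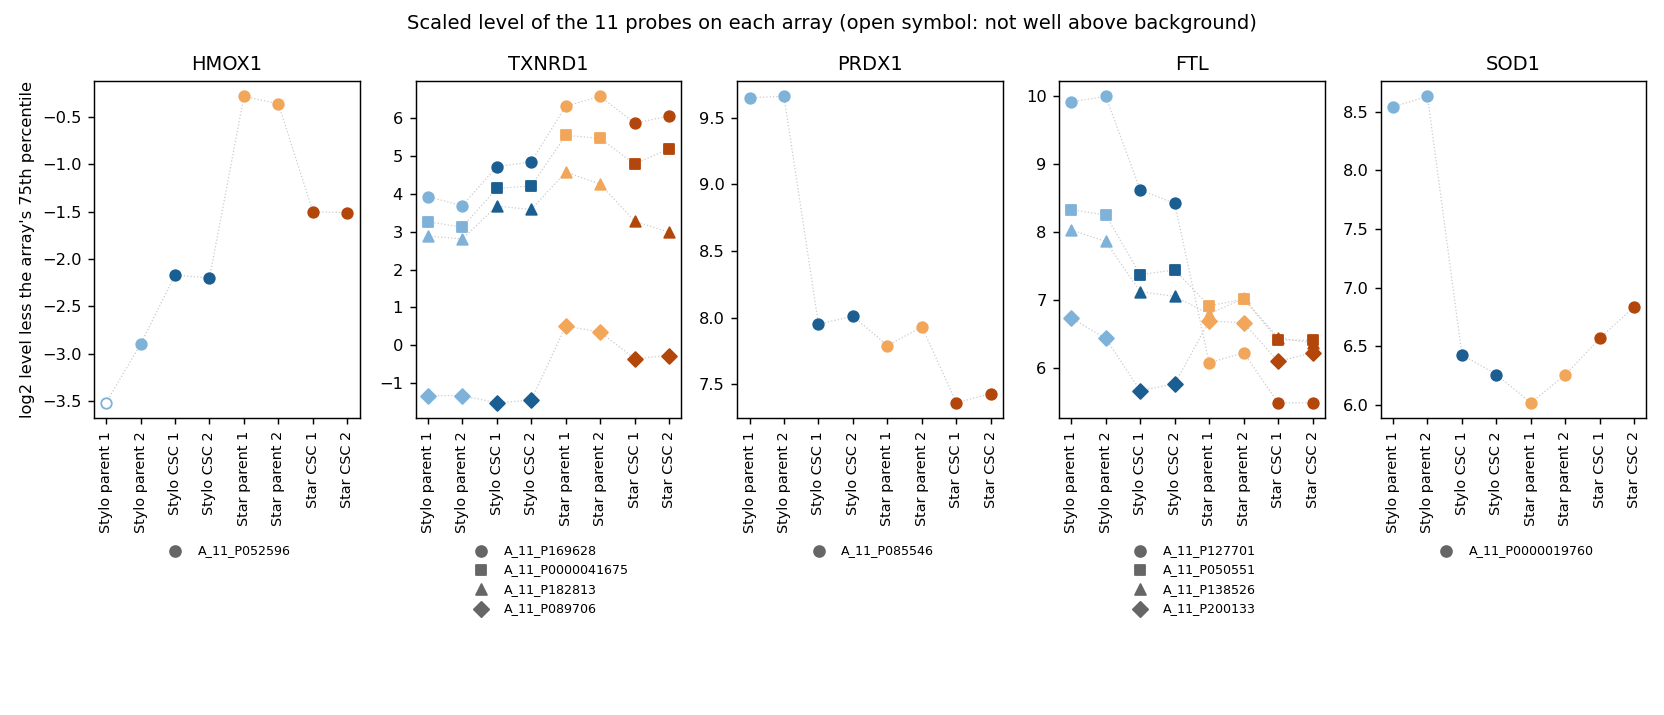
Scaled level (vertical axis, log2 signal less the array's 75th percentile) of the same 11 probes on the same arrays, coloured by group. After scaling, PRDX1 and SOD1 are highest on the Stylo parent arrays, HMOX1 and TXNRD1 are highest on the Star parent arrays, and the 4 FTL probes part between the lines.

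FTL encodes the ferritin light chain, and its 4 probes differed from each other between the lines. Probe A_11_P127701 read 85849 and 71012 in Stylo parent, 121529 and 101317 in Stylo CSC, 25013 and 24607 in Star parent, and 23968 and 20638 in Star CSC. Every Star array lay below every Stylo array. Probe A_11_P200133 read 9388 and 5973 in Stylo parent, 15677 and 16066 in Stylo CSC, 38413 and 33501 in Star parent, and 36591 and 34533 in Star CSC. Here every Star array lay above every Stylo array. Probes A_11_P050551 and A_11_P138526 lay between these patterns, with signals of 21134 to 28425 and 16076 to 23140 in Stylo parent and of 39236 to 51433 and 38099 to 46410 on the other 6 arrays. On the scaled levels, A_11_P127701 was 14.1-fold lower in Star parent than in Stylo parent, at -3.82 ± 0.11 (adjusted p = 4.67e-06), and it was called lower under all 7 scalings, with values from -3.82 to -1.54. Probe A_11_P050551 was called lower at -1.33 ± 0.09 and A_11_P138526 at -1.04 ± 0.12. The former kept its call under 2 of 7 scalings and the latter under the main one alone, and both turned sign under some of the others. Without Stylo parent replicate 1, or without Star parent replicate 1, A_11_P138526 was at -0.95 or -0.93 and was not called. Probe A_11_P200133 differed by 0.10 ± 0.13 (95% interval -0.22 to 0.42, adjusted p = 0.522) and was called higher under 4 of the 7 scalings, with values up to 1.85. A statement about FTL between the lines is therefore a statement about a probe, and the transcript forms that each probe binds are not given in the sources used here.

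The ratio of the processed signals of 2 probes on an array is not changed by a scaling that adds a constant to the array (percentiles, median, spike-ins), whereas quantile, cyclic loess and normexp can change it. Probe brightness gives the ratio itself no meaning, and only its change between arrays is read. For FTL, the log2 ratio of A_11_P127701 over A_11_P200133 was 2.66 to 3.57 on the 4 Stylo arrays and -0.74 to -0.45 on the 4 Star arrays. The lines did not overlap, the mean difference was 13.0-fold, and the largest gap between replicates was 0.38. The ratio of A_11_P127701 over A_11_P050551 fell 4.79-fold in the mean and that over A_11_P138526 fell 5.91-fold, each without overlap. The ratio of A_11_P050551 over A_11_P138526 changed least, from 0.25 to 0.39 in Stylo to -0.03 to 0.11 in Star. For TXNRD1 the ratio of A_11_P169628 over A_11_P182813 was 0.88 to 1.27 in Stylo and 1.74 to 3.06 in Star, so its probes too changed by unequal amounts. Across genes, the ratio of TXNRD1 (A_11_P169628) over PRDX1 was -5.96 to -3.15 on the Stylo arrays and -1.49 to -1.34 on the Star arrays. TXNRD1 over SOD1 ran from -4.94 to -1.41 in Stylo and from -0.78 to 0.32 in Star, and TXNRD1 over FTL probe A_11_P127701 from -6.31 to -3.56 and from 0.25 to 0.58. By processed signal these TXNRD1 ratios were higher on every Star array than on any Stylo array. HMOX1 over TXNRD1 overlapped between the lines, at -7.46 to -6.59 and -7.56 to -6.61. PRDX1 over SOD1 also overlapped, at 1.03 to 1.74 and 0.60 to 1.77, with the lowest values in Star CSC.

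**Figure D3:**
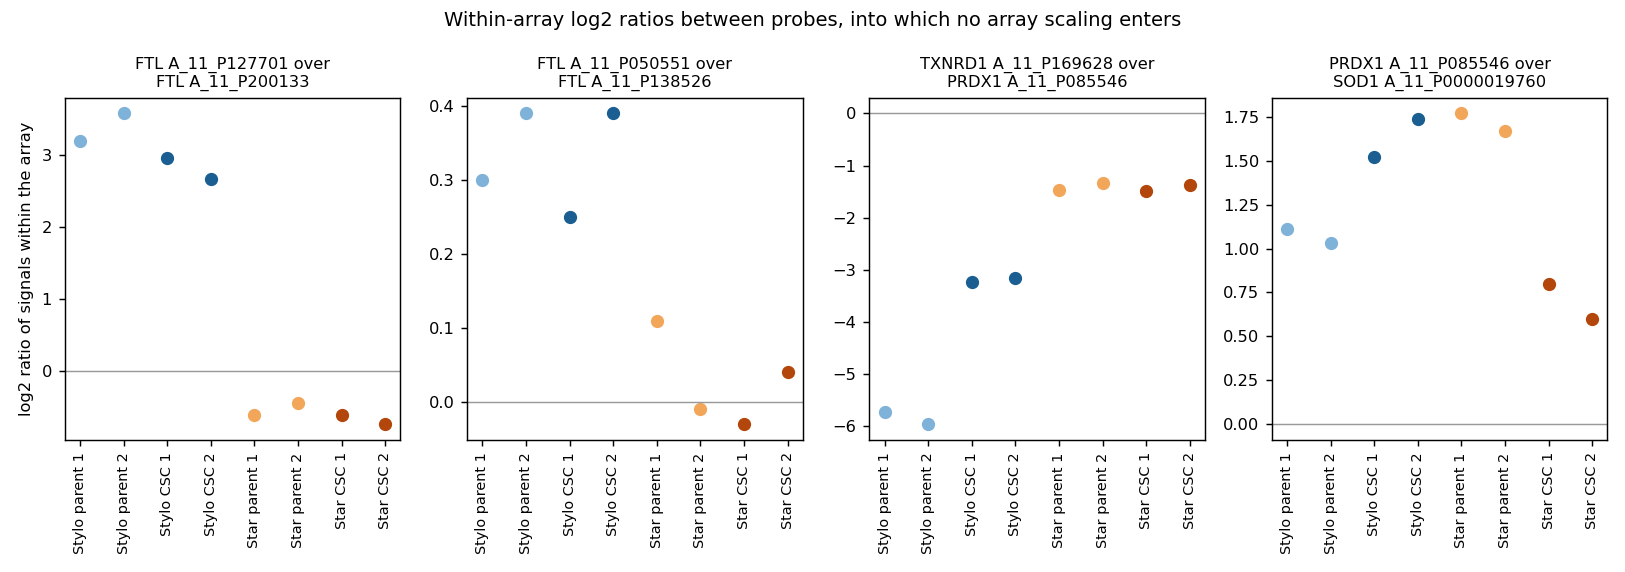
Log2 ratio of the signals of 2 probes on the same array (vertical axis, a separate range in each panel) for each of the 8 arrays, coloured by group. FTL A_11_P127701 over A_11_P200133 lies at 2.66 or above on the Stylo arrays and at -0.45 or below on the Star arrays, TXNRD1 over PRDX1 is higher on every Star array, and PRDX1 over SOD1 overlaps between the lines.

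In the sensitive line, sorting separated the same genes in part. In Stylo CSC against Stylo parent, HMOX1 was called higher by a margin that rested on 1 dim spot, PRDX1, SOD1 and FTL were called lower, and TXNRD1 was not called. This gave 1 gene higher, 3 lower and 1 not called, against 21.9% of all tested probes called higher and 32.1% lower, or 54.0% either way, and 19.3% and 37.9% of named genes. The split was 30.4% and 22.7% with the median, 27.7% and 23.6% with quantile normalization, 26.2% and 24.4% with cyclic loess, 67.5% and 1.57% with the spike-ins, and 15% and 43.6% with normexp. The median difference of the 5 genes was -1.45, beside -0.28 over all tested probes. SOD1 was 4.73-fold lower at -2.24 ± 0.14 (adjusted p = 3.93e-05). It was lower under all 7 scalings and called under 4, with -0.20 under the spike-ins. PRDX1 was 3.20-fold lower at -1.68 ± 0.10 (adjusted p = 2.74e-05) and was called under 3 of 7 scalings, with 0.36 under the spike-ins. FTL probe A_11_P127701 was called lower at -1.45 ± 0.11 (adjusted p = 7.86e-05), and the value was 0.13, 0.12 and 0.59 with quantile normalization, normexp and the spike-ins. The other FTL probes differed by -0.89 to -0.86 and none was called, though without Stylo parent replicate 2 A_11_P200133 was called at -1.02.

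HMOX1 differed by 1.03 ± 0.20 in Stylo CSC (adjusted p = 0.00427), just past the limit, and with the dim Stylo parent spot raised to the floor it was at 0.91 (adjusted p = 0.000985) and was not called. The call needed Stylo parent replicate 1, without which the difference was 0.71, and with normexp the gene was called lower at -1.03. TXNRD1 probe A_11_P169628 differed by 0.97 ± 0.15 (95% interval 0.61 to 1.34, adjusted p = 0.00136), short of the 2-fold limit, and the 6 other scalings placed it between 1.18 and 3.01 and called it. Leaving out Stylo parent replicate 1 or Stylo CSC replicate 1 raised it to 1.09 or 1.04, which was called. Probes A_11_P0000041675 and A_11_P182813 differed by 0.98 and 0.78, and probe A_11_P089706 by -0.15. A_11_P0000041675 was called without Stylo parent replicate 1 (1.06) or Stylo CSC replicate 1 (1.02). By processed signal both Stylo CSC arrays were above both Stylo parent arrays for HMOX1, all 4 TXNRD1 probes, PRDX1 and all 4 FTL probes, and below them for SOD1. The 75th percentile of the whole array was likewise higher, at 310 and 296 in Stylo CSC against 88.3 and 69.2 in Stylo parent. The share of all probes with the same order was not counted, so this order is not read as a result about these genes.

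The same comparison was made in the resistant line. Between Star CSC and Star parent HMOX1 alone of the 5 genes was called, and it was lower in Star CSC, against 3.22% of all tested probes called higher and 6.51% lower, or 9.72% either way, and 5.52% and 7.36% of named genes. The split was 6% and 4.18% with the median, 3.85% and 4.39% with quantile normalization, 4.26% and 4.68% with cyclic loess, and 68.4% and 0.868% with the spike-ins. The median difference of the 5 genes was -0.49, beside -0.10 over all tested probes. HMOX1 fell by 1.18 on the log2 scale, with an SE of 0.20 and an adjusted p of 0.0102. It was called under 4 of 7 scalings and was at 0.19 with the spike-ins. Without Star parent replicate 1 it was at -1.14 with an adjusted p of 0.0501 and was not called. TXNRD1 probe A_11_P182813 was called lower at -1.28 ± 0.16 (adjusted p = 0.00379) and kept that under 6 of 7 scalings. The brightest TXNRD1 probe differed by -0.49 (adjusted p = 0.0545) and the others by -0.74 and -0.52, and none of these was called under any of the 7 scalings.

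PRDX1 and FTL were not called between Star CSC and Star parent, with -0.46 for PRDX1 (95% interval -0.70 to -0.22) and -0.67 to -0.51 for the 4 FTL probes. SOD1 differed in the other direction from these at 0.56 (95% interval 0.21 to 0.91, adjusted p = 0.0344), below the 2-fold limit. It was higher under all 7 scalings, at 0.44 to 1.94, and was called higher with quantile normalization (1.24) and the spike-ins (1.94). Its processed signal was 24150 and 25380 in Star parent and 50862 and 52971 in Star CSC, a larger step than that of the array's 75th percentile.

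Between the sorted cells of both lines, by the brightest probe of each gene, TXNRD1 was called higher and FTL lower in Star CSC. The other 3 genes were not called. The background was 12.6% of all tested probes called higher and 16.9% lower, or 29.4% either way, and 15.7% and 22.3% of named genes. The split over probes was 16.8% and 13% under median scaling, 15.6% and 13.8% under the percentile of detected probes, and 25.3% and 9.73% under the spike-ins. The median difference of the 5 genes was 0.36, beside -0.10 over all tested probes. TXNRD1 probe A_11_P169628 differed by 1.18 ± 0.15 (adjusted p = 0.00123) and was called under all 7 scalings, at 1.18 to 2.02. Probe A_11_P089706 was called at 1.17 ± 0.10 (adjusted p = 0.000317) and kept that under 6 of 7. Probe A_11_P0000041675 was at 0.82 and A_11_P182813 at -0.49, and neither was called in the main scaling. The former was called higher under 4 of the 7 scalings, and in the main scaling without Star CSC replicate 1 (1.02). FTL probe A_11_P127701 was 8.21-fold lower at -3.04 ± 0.11 (adjusted p = 2.56e-05) and was called under all 7 scalings, at -3.04 to -2.14. FTL probe A_11_P050551 was at -1.0 (adjusted p = 0.000429), just short of the limit and past it without Stylo CSC replicate 1 (-1.03) or Star CSC replicate 1 (-1.0), A_11_P138526 at -0.69 and A_11_P200133 at 0.44. HMOX1 differed by 0.68 (95% interval 0.18 to 1.18), PRDX1 by -0.58 (95% interval -0.82 to -0.34) and SOD1 by 0.36 (95% interval 0.00 to 0.71). Under other scalings some of these were called higher. SOD1 was called with quantile normalization (1.48) and cyclic loess (1.06), HMOX1 with the spike-ins (1.18) and PRDX1 with quantile normalization (1.06). FTL probe A_11_P200133 was called higher under 2 of the 7.

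**Figure D4:**
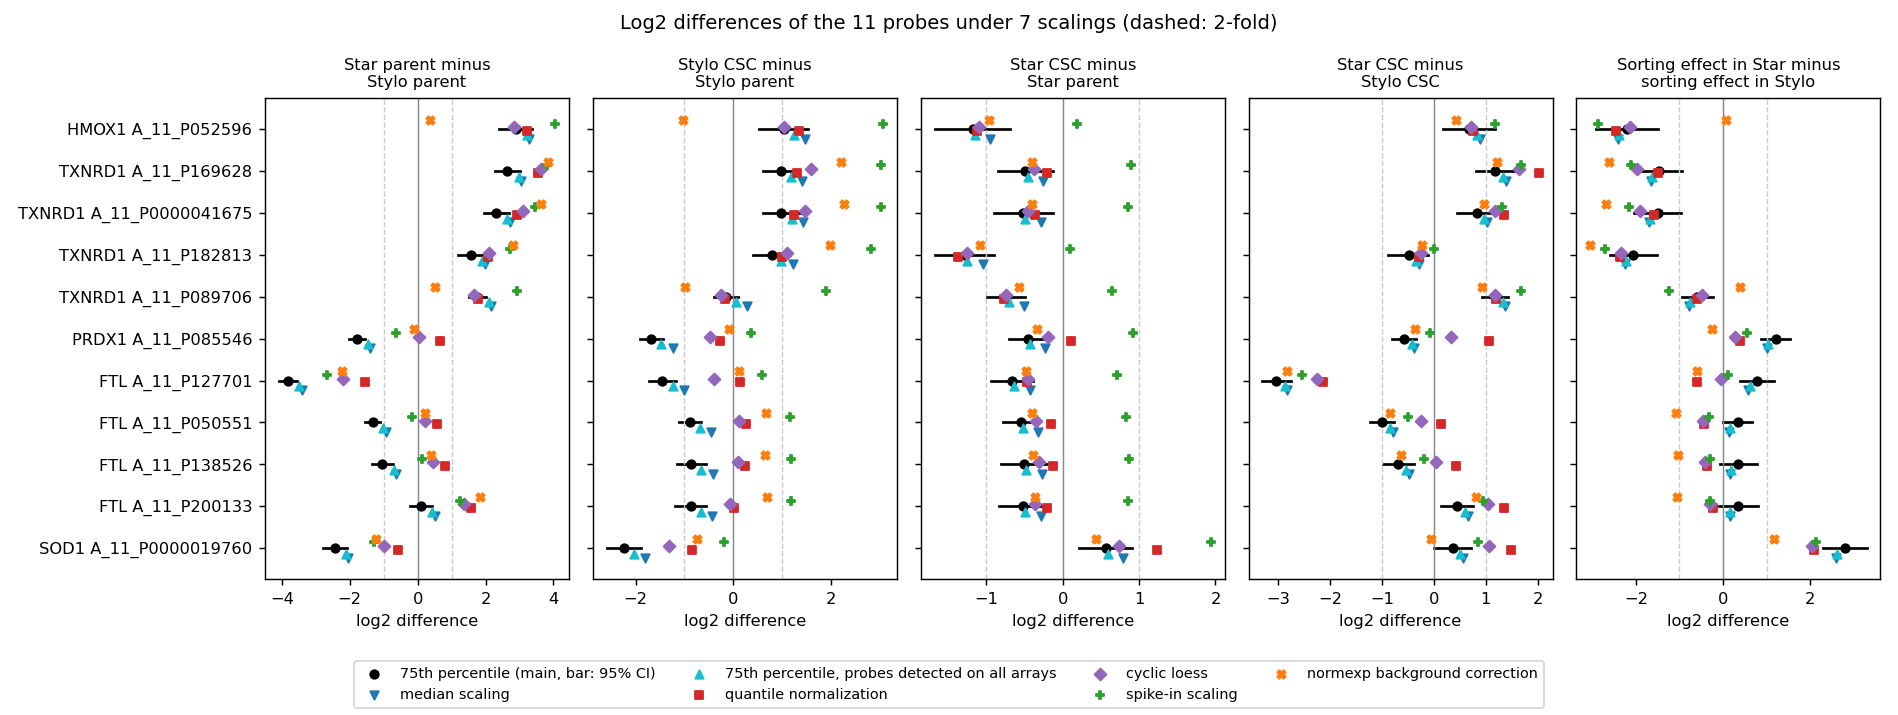
Log2 differences (horizontal axis) of the 11 probes in the 4 comparisons and in the difference of sorting effects, each under 7 scalings marked by symbol, with the 95% interval of the main scaling as a bar and dashed lines at 2-fold. TXNRD1 A_11_P169628 and FTL A_11_P127701 lie on the same side of 0 in every scaling of both line comparisons, whereas PRDX1 and FTL probes A_11_P050551 and A_11_P138526 cross 0 in some.

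Whether sorting had the same effect in both lines was tested as the sorting effect in Star less the sorting effect in Stylo. It was called for HMOX1, TXNRD1, PRDX1 and SOD1, and no FTL probe was called. This gave 2 genes higher and 2 lower, against 28.2% of all tested probes called higher and 24.0% lower, or 52.1% either way, and 33.2% and 20.9% of named genes. The split over probes was 36.3% and 15.4% with normexp and 12.3% and 31.6% with the spike-ins. The median difference of the 5 genes was 0.78, beside 0.15 over all tested probes. SOD1 had the largest difference of the 5 representative probes in the main scaling, at 2.80 ± 0.20 (adjusted p = 0.000115). Its sorting effect was -2.24 in Stylo and 0.56 in Star, and the difference was called under all 7 scalings, at 1.18 to 2.80. The TXNRD1 difference was -1.46 ± 0.21 (adjusted p = 0.00146), from an effect of 0.97 in Stylo and -0.49 in Star, and it was called under all 7 scalings, at -2.61 to -1.46. TXNRD1 probes A_11_P0000041675 and A_11_P182813 were called likewise under all 7, at -1.50 ± 0.22 and -2.06 ± 0.22, and A_11_P089706, at -0.59, was called under none. HMOX1 differed by -2.21 ± 0.29 (adjusted p = 0.000967), called under 6 scalings and at 0.07 with normexp. PRDX1 differed by 1.22 ± 0.14 (adjusted p = 0.000535), called under 3 scalings and at -0.26 with normexp. The 4 FTL probes differed by 0.34 to 0.78, and under normexp by -1.07 to -0.60.

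The other genes of these pathways were read from fixed lists, by the brightest probe of each gene. Few had a probe that could be named: TXN, TXNRD2, PRDX2 to PRDX6, SOD2, SOD3, HMOX2, NQO1 and the glutamate-cysteine ligase genes had none among the named probes and were not analysed here. Of 12 listed haem genes HMOX1 alone was tested, of 6 peroxiredoxins PRDX1 alone, and of 20 genes of NRF2 control 0. Of the 10 thioredoxin genes, TXNRD1 and TXNRD3, a reductase of testis, were tested, and TXNRD3 was not called in the main scaling, with differences of 0.05 to 0.62. It was called higher in Star parent against Stylo parent with cyclic loess (1.00), the spike-ins (1.51) and normexp (1.65), in Stylo CSC with the spike-ins (2.09) and normexp (1.38), in Star CSC against Star parent with the spike-ins (1.70), and between the sorted cells with quantile normalization (1.02) and the spike-ins (1.12).

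Of 5 superoxide dismutase and catalase genes, 3 were tested. SOD1 and CCS, the chaperone that loads copper into SOD1, were called lower in Star parent against Stylo parent and in Stylo CSC against Stylo parent, and both were called in the difference of sorting effects. CCS differed by -1.97 ± 0.11 and -1.33 ± 0.11 in these 2 comparisons, and its sorting effects differed by 2.02 ± 0.15 (adjusted p = 0.000131). A second CCS probe gave -1.90, -1.39 and 2.11. CCS was at 0.70 and not called in Star CSC against Star parent. The CCS difference of sorting effects was called under 6 of 7 scalings and was 0.76 with normexp, and its value in Stylo CSC turned to 0.71 with the spike-ins. In Star parent it was called under 5 of 7 scalings. CAT, the catalase gene, was not called in the main scaling, with differences of -0.26 to 0.50. It was called higher with the spike-ins and normexp in Star parent (1.65 and 1.78) and Stylo CSC (2.45 and 1.64), higher with the spike-ins in Star CSC against Star parent (1.53), and lower with normexp in the difference of sorting effects (-1.37).

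Of 31 listed genes of iron storage, uptake and export, 7 were tested, and in the main scaling none was called higher in the 4 comparisons of groups. FTL is one of them, so that its probe enters these counts. In Star parent against Stylo parent 4 fell, in Stylo CSC against Stylo parent 3, in Star CSC against Stylo CSC 4, and the list medians were -2.11, -0.86 and -1.51. With the spike-ins 4 were called higher and none lower in Stylo CSC, and 3 higher in Star CSC against Star parent. Of all tested named genes in the main scaling, 39.2% were called lower in Star parent, 37.9% in Stylo CSC and 22.3% between the sorted cells. The list was not tested against these shares. HAMP, which encodes the iron hormone hepcidin, was not well above background on any Star array and was at least 72.9-fold lower in Star parent than in Stylo parent and at least 20.5-fold lower in Star CSC than in Stylo CSC. By the brightest probes, the single call in Star CSC against Star parent was HAMP, below background in both groups, so no fold is given. LTF, the iron-binding lactoferrin, was called lower at -3.07 in Star parent and -1.98 in Stylo CSC (0.05 with the spike-ins), and its sorting effects differed by 1.42. TFRC, the transferrin receptor through which cells take up iron, was at -0.66 in Star parent and -0.19 in Star CSC against the Stylo groups and was not called, and those values were 0.50 and 0.30 with the spike-ins.

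FTH1, the ferritin heavy chain that oxidises iron in the shell with FTL, had 5 probes. In Star parent against Stylo parent they differed by -2.51 to -0.76, and 2 of the 5, A_11_P159623 (-1.05) and A_11_P052101 (-2.51), were called lower. Between the sorted cells the differences were -2.62 to -0.99, and all but A_11_P212868, the representative, were called lower. Without Stylo CSC replicate 2 or Star CSC replicate 2 that probe too was called, at -1.22 or -1.23. The same probe turned to 1.49 with quantile normalization in the unsorted comparison and to 0.62 in the sorted one, so its direction is not settled. For A_11_P052101 the Star CSC replicate 1 spot was an outlier and was dropped. No FTH1 probe was called in Stylo CSC against Stylo parent, where the 5 differed by -0.29 to 0.09. In Star CSC against Star parent A_11_P159623 was called lower, at -1.08 (adjusted p = 0.0201), and the other 4 differed by -0.69 to -0.40.

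Of 26 glutathione genes, 8 were tested. In Star parent against Stylo parent 4 fell and none rose, in Stylo CSC 2 fell, in Star CSC against Star parent 2 fell, and between the sorted cells 1 rose and 2 fell. With the spike-ins 6 were called higher in Stylo CSC and 6 in Star CSC against Star parent, and none lower. Of all tested named genes in the main scaling, 39.2% were called lower in Star parent and 37.9% in Stylo CSC. The share was 7.36% in Star CSC against Star parent and 22.3% between the sorted cells, where 15.7% were called higher. The list was not tested against these shares. SLC7A11, the cystine transporter that supplies glutathione synthesis, and its partner SLC3A2 were both called lower between the lines. SLC7A11 differed by -2.89 ± 0.20 in Star parent and -4.04 ± 0.20 in Star CSC against the matching Stylo groups, and was called under all 7 scalings in both. SLC3A2 differed by -1.99, called under 5 scalings, and -2.61, called under 7. Both were also called lower in Star CSC against Star parent, at -1.03 and -1.08, and turned to 0.35 and 0.29 with the spike-ins. There SLC7A11 was called under the main scaling alone and SLC3A2 under 4 of 7. The SLC7A11 call there was lost without Star parent replicate 1 (-0.94) or Star CSC replicate 1 (-0.93), and the SLC3A2 call without Star parent replicate 2 (-0.98). GPX8, a peroxidase of the endoplasmic reticulum, was called lower at -2.90 in Star parent and -2.89 in Stylo CSC, was at 0.24 in Star CSC against Star parent, and had a difference of sorting effects of 3.13 ± 0.18, called under all 7 scalings. GSTA4, a glutathione transferase, was the gene called higher between the sorted cells, at 1.01, and lost that call without Stylo CSC replicate 1 (0.97) or Star CSC replicate 2 (0.98).

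Of 15 metallothionein and selenoprotein genes, 10 were tested. In Star parent against Stylo parent 1 rose and 5 fell, in Stylo CSC 7 fell (3 called higher and 1 lower with the spike-ins), in Star CSC against Star parent none was called (8 higher with the spike-ins), and between the sorted cells 3 rose and 2 fell. By the main scaling, 39.2% of the tested named genes had a lower call and 20.6% a higher call in the first of these comparisons. For Stylo CSC the shares were 37.9% lower and 19.3% higher. They were 7.36% and 5.52% in Star CSC against Star parent, and 22.3% and 15.7% between the sorted cells. This list was not tested against those shares. MSRB1, a methionine sulfoxide reductase, was called higher at 1.25 in Star parent and 2.41 in Star CSC against the Stylo groups. MT4, a metallothionein, was called lower at -4.52 and -3.34 in the same comparisons. SELENOT, a selenoprotein of the endoplasmic reticulum, fell by 3.12 in Stylo CSC, and its sorting effects differed by 3.06, called under all 7 scalings. MT2A, another metallothionein, was the gene of this list called lower in the difference of sorting effects, at -1.0. It was called under all 7 scalings, at -2.42 to -1.0. In the main scaling that call was lost without Stylo parent replicate 1 (-0.89), Stylo CSC replicate 1 (-0.95), Star parent replicate 2 (-0.99) or Star CSC replicate 2 (-0.90). Of 21 oxidant-producing enzymes, 7 were tested. In both Star parent and Stylo CSC against Stylo parent 5 were called lower, of which MAOA was below background in both groups. The shares of named genes called lower were 39.2% and 37.9%, and the list was not tested against them. For Star parent the count was 3 with the median, the percentile of detected probes, quantile normalization and cyclic loess, and 4 with normexp. The CYBA call held under 1 of 7 scalings in both comparisons. The MAOA call in Star parent held under 2, and was lost without either replicate of either parent group. With the spike-ins the calls were 2 higher and 2 lower for Star parent, and 2 higher and 0 lower for Stylo CSC. CYBB, the catalytic subunit of the phagocyte NADPH oxidase, was at least 15.2-fold lower in Star parent and fell by 2.90 in Stylo CSC. DUOX1, which makes hydrogen peroxide, fell by 3.29 (SE 0.27) in Star CSC against Star parent, called under all 7 scalings. Between the sorted cells MAOA was at least 1.65-fold higher and NOS3, the endothelial nitric oxide synthase, fell by 1.77. The MAOA call was lost without Star CSC replicate 2 (adjusted p = 0.0526) and with dim values raised to the floor (0.72).

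**Figure D5:**
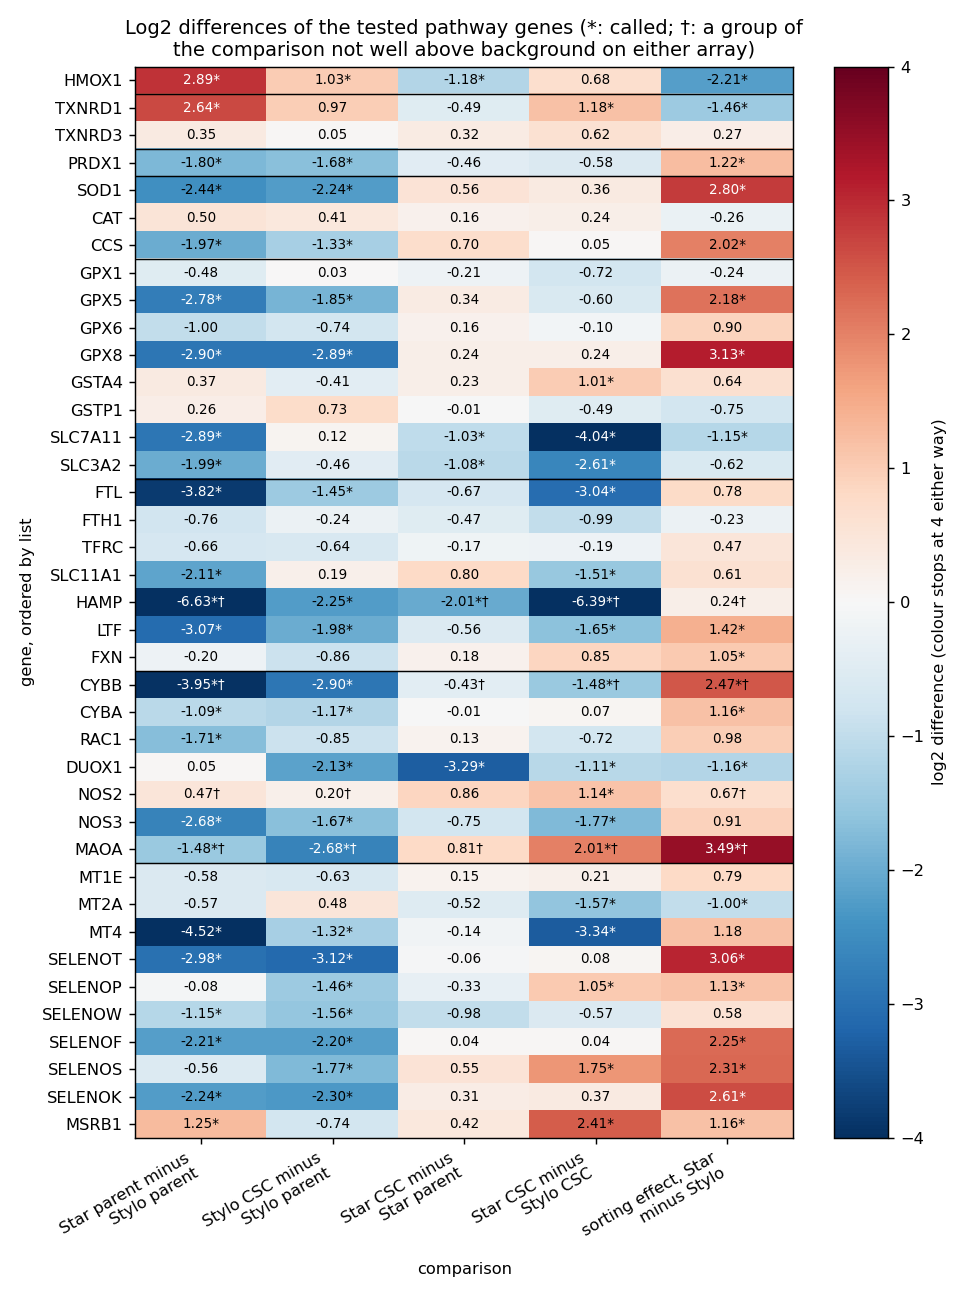
Log2 differences (colour and printed value) of the tested genes of the pathway lists, by comparison, in the main scaling, with lines between lists. HMOX1 and TXNRD1 are the highest values of the first column (2.89 and 2.64), where most of the other genes lie below 0, and the column for Star CSC minus Star parent holds the fewest calls.

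The named genes whose pattern over the 8 arrays was nearest to each member were found by the root mean square difference of centred scaled levels. HMOX1, dim on 1 array, was compared with the 725 genes that no array read as dim, and each other member with 724 of them. This is a description over 8 arrays. Nearest to HMOX1 were INPP5A (0.34), TXNRD1 (0.35) and MAP2K1 (0.44), with a median of 1.42 over all genes compared. Nearest to TXNRD1 were PSEN2 (0.29), HSPB8 (0.29) and GNAI2 (0.30), with a median of 1.41. Nearest to PRDX1 were VDAC3 (0.08), LDHB (0.12) and PEBP1 (0.12), with a median of 0.82. Nearest to SOD1 were CYCS (0.12), SELENOK (0.13) and LSM4 (0.15), with a median of 0.95. FTL probe A_11_P127701 lay nearest to the ribosomal protein genes RPSA (0.16), RPS4X (0.17) and RPS10 (0.17), with a median of 1.62. A list of 25 ribosomal protein genes had 25 called lower in Star parent against Stylo parent (median -3.00) and 23 in Stylo CSC (median -1.82). Of all tested named genes 39.2% and 37.9% were called lower in these comparisons. Under quantile normalization these counts were 8 and 0 of 24. Whether the PRDX1, SOD1 and FTL values share a shift with the ribosomal protein genes was not tested.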

How the data were processed

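Per the file headers, the submitters quantified the scans in Agilent Feature Extraction, version 11.5.1.1. The deposited scanner files hold a processed signal per spot, an intensity, with background and outlier flags. The deposited series matrix holds log2 values. These matched log2 of the processed signal minus the 75th percentile of the array, centred per probe, with an SD of the difference of at most 6.27e-07 over 18346 probes. No spot was saturated.

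Groups and replicate numbers came from the sample titles. Outlier spots were dropped, spots of a probe were averaged as log2, and arrays were scaled by subtracting their 75th percentile. Of 43603 probes 26825 were tested, those that both arrays of any group read well above background. Signal over background and 2 arrays per group limit the precision. The group means were fitted on all 8 arrays with limma 3.58.1 (R 4.3.3), and the two-sided p-values were Benjamini-Hochberg adjusted over all tested probes. The fit was also run on simulated data with independent noise. Those data had none of the brightness differences of these arrays, so that run does not bear on the scaling. An "at least" fold divides the bright group's mean by a floor, set on each array as the dim probe's signal or the lowest signal called well above background, whichever was higher.

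Symbols came by accession from a RefSeq table (assembly UU_Cfam_GSD_1.0, names only), which named 2353 probes (5.40%). The tested probe with the highest mean stands for its gene. Beside the members, the text names the called list gene with the largest rise and fall in a comparison and family partners of members, and also SLC3A2, CAT and TXNRD3, chosen after their values were seen. Members and lists were chosen with earlier results of these data known. Same-numbered replicates did not deviate together (correlations -0.0683 to 0.0729), so arrays were not paired.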

Additional observations from a re-analysis of the deposited data

Results flagged for a closer look

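The sorting effect (sorted less unsorted cells) differed between the lines for 6 of the 11 probes by limma's interaction test, on the log2 scale and as Star less Stylo. The HMOX1 probe A_11_P052596 differed by -2.21, from an effect of 1.03 in Stylo and -1.18 in Star, and by -2.10 with its dim Stylo parent spot raised to the floor. TXNRD1 probes A_11_P169628, A_11_P0000041675 and A_11_P182813 differed by -1.46, -1.50 and -2.06. PRDX1 probe A_11_P085546 differed by 1.22 and SOD1 probe A_11_P0000019760 by 2.80. The SOD1 difference and the 3 TXNRD1 differences were called under all 7 scalings, the HMOX1 difference under 6 and the PRDX1 difference under 3. Of all tested probes, 52.1% were called in the same test, so the count of 6 of the 11 probes is near the background.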

How the results depend on the processing

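Of the 55 results of the 11 probes in 5 comparisons, the replicate block (replicate number in the fit) changed no call, and the counts of genes called with it were 5, 4, 1, 2 and 4, as without it. A slide block could not be fitted, because each line lies on its own slide, and the fit on only the arrays compared has no value for the difference of sorting effects. Scaling moved the results most. The median difference of all tested probes with the spike-ins was 0.96 in Star parent against Stylo parent, 1.76 in Stylo CSC against Stylo parent and 1.28 in Star CSC against Star parent, beside -0.20, -0.28 and -0.10 in the main scaling, and with normexp it was -0.82, -0.77 and -0.23. Scaling by the spike-ins, the median or the percentile of detected probes adds a constant to each array, so the reversals below under these scalings follow from that shift. The cause of the other reversals was not tested. Raising dim values to the floor, chosen after seeing the data, changed 1 call of the 11 probes, HMOX1 in Stylo CSC (0.91), where 3 genes were then called. HMOX1 was not tested among the probes detected on all arrays.

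Star parent against Stylo parent turned sign for PRDX1 with quantile normalization (0.67) and cyclic loess (0.04), for FTL probe A_11_P050551 with quantile (0.57), loess (0.21) and normexp (0.23), for A_11_P138526 with quantile (0.80), loess (0.45), spike-ins (0.12) and normexp (0.40), and for A_11_P200133 without Stylo parent replicate 2 (-0.05, in a range of -0.05 to 0.25 over the arrays left out). It turned for FTH1 with quantile (1.49), loess (1.09), spike-ins (0.40) and normexp (0.53), and for TFRC with the spike-ins (0.50).

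Stylo CSC against Stylo parent turned sign for TXNRD1 probe A_11_P089706 with the median (0.28), the percentile of detected probes (0.05) and the spike-ins (1.89), for FTL A_11_P127701 with quantile (0.13), spike-ins (0.59) and normexp (0.12), for A_11_P050551 with quantile (0.26), loess (0.11), spike-ins (1.15) and normexp (0.67), for A_11_P138526 likewise (0.23, 0.10, 1.18 and 0.64), for A_11_P200133 with quantile (0.02), spike-ins (1.17) and normexp (0.69), for PRDX1 with the spike-ins (0.36) and for HMOX1 with normexp (-1.03). With the spike-ins it turned for CCS (0.71), LTF (0.05), NOS3 (0.37) and MT4 (0.72).

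Star CSC against Star parent turned sign with the spike-ins for HMOX1 (0.19), TXNRD1 A_11_P169628 (0.89), A_11_P0000041675 (0.86), A_11_P182813 (0.09) and A_11_P089706 (0.64), PRDX1 (0.92), FTL A_11_P127701 (0.71), A_11_P050551 (0.83), A_11_P138526 (0.87) and A_11_P200133 (0.86), SLC7A11 (0.35) and SLC3A2 (0.29), and for PRDX1 with quantile (0.11). Star CSC against Stylo CSC turned for PRDX1 with quantile (1.06) and loess (0.32), for FTL A_11_P050551 with quantile (0.14), A_11_P138526 with quantile (0.43) and loess (0.03), TXNRD1 A_11_P182813 with the spike-ins (0.00), SOD1 with normexp (-0.06), FTH1 with quantile (0.62), TFRC with the median (0.01) and the spike-ins (0.30) and MAOA with normexp (-0.13).

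The difference of sorting effects turned for FTL A_11_P127701, A_11_P050551, A_11_P138526 and A_11_P200133 with quantile (-0.60, -0.43, -0.37 and -0.23), loess (-0.05, -0.46, -0.42 and -0.31) and normexp (-0.60, -1.07, -1.03 and -1.05), for the last 3 with the spike-ins (-0.33, -0.31 and -0.31), and with normexp for HMOX1 (0.07), TXNRD1 A_11_P089706 (0.40) and PRDX1 (-0.26).

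The genes called in Star parent against Stylo parent went from 5 to 3 with quantile, loess and normexp. In Stylo CSC they went from 4 to 2 with quantile, spike-ins and normexp. In Star CSC against Star parent they went from 1 to 0 with the median, normexp, probes detected on all arrays and adjusted p under 0.01, to 2 with quantile and to 4 with no fold limit. In Star CSC against Stylo CSC they went from 2 to 4 with quantile and with no fold limit, and to 1 with the lowest probe of each gene. In the difference of sorting effects they went from 4 to 2 with normexp. Leaving out each array in turn gave 5, 4 to 5, 0 to 1, 2 and 4 genes.

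All probes called went from 15168 to 26734, from 14484 to 28650 and, for the sorting effects, from 13988 to 21988 with no filter on dim probes. In Star CSC against Star parent 2608 became 18525 with the spike-ins, 1131 with normexp, 1354 with probes detected on all arrays, 1734 with adjusted p under 0.01 and 7922 with no fold limit. In Star CSC against Stylo CSC 7897 became 3993 with normexp, 4581 with probes detected on all arrays and 15288 with no fold limit.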
